A study of Mus musculus with 16 samples.

Results

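Cytosolic ribosomal protein genes encode the proteins of the small and large subunits of the ribosome that translates nuclear-encoded mRNAs. Members were the genes whose symbol names such a protein (Rps or Rpl with a number, or Rplp0, Rplp1, Rplp2 and Rpsa) and whose mean level was at least 10 CPM (counts scaled to the library total) over the 16 libraries. S6 kinase genes and pseudogenes were left out. Of 89 family symbols in the files, 79 were members, 31 of the small subunit and 48 of the large subunit, among 55359 genes in the files and 17190 tested. The rule used symbol and mean level, not response, and was set with earlier results of these data known. Rpl3l passed the level threshold only through uninfected cells of day 5, as described below.

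The series holds polyadenylated RNA of wild-type MPI-2 cells, a mouse cell line that resembles alveolar macrophages, kept in medium with GM-CSF and used over a range of passages. The groups were cells exposed to Mycobacterium abscessus for 5 days, uninfected cells of day 5, cells exposed for 1 day, and uninfected cells of day 1, with 4 libraries labelled as biological replicates in each. Mycobacterium abscessus is a rapidly growing non-tuberculous mycobacterium that can live inside macrophages. The labels do not say whether replicates came from separate thaws or days, so p-values measure the spread between these cultures. All groups come from a single line, and RNA from cells that did or did not hold bacteria was not separated.

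Each ribosome carries about equal numbers of nearly all these proteins, and cells make them in step with ribosomal RNA. Their mRNAs belong to the TOP class, named for a tract of pyrimidines that starts with C at the capped end. Through that tract, growth signalling by the kinase mTOR and the RNA-binding protein Larp1 controls whether the mRNAs are translated or stored. mRNA levels, measured here, do not show that control. In bulk samples, fewer cells of a type and less RNA per cell cannot be told apart.

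The start sites of 6 members are shown because they carried the lowest p-values, 3 in each direction, among members called at day 5 and listed in the RefSeq promoter table (build GRCm38.p6). Each window runs from 15 bases before to 15 bases from the annotated start, on the transcribed strand. Capitals mark the longest run of C and T that begins with C, has at least 4 more pyrimidines and touches the stretch from 5 bases before to 10 bases after the start. Where a gene had several annotated starts, the one with the longest such run is shown. The first 3 were lower in exposed cells at day 5 and the last 3 higher.
Rplp2, chr7:141447636-141447665, plus strand: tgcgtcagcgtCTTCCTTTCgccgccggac
Rps26, chr10:128626492-128626521, minus strand: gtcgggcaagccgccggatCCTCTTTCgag
Rps28, chr17:33824548-33824577, minus strand: ggtaccgcgtgcggtctcgcgagagcgaaa
Rps24, chr14:24490663-24490692, plus strand: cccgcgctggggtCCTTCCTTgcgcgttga
Rps15a, chr7:118116133-118116162, minus strand: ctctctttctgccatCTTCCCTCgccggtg
Rpl34, chr3:130730323-130730352, minus strand: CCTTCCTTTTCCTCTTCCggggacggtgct

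In the windows shown, a pyrimidine run covered or lay near the annotated start in members of both directions, and the Rps28 window held none. Since starts were picked for the longest run, these windows do not show how often it occurs. The table matched 59 of the 79 members, with 71 start sites. The pattern of C and 4 further pyrimidines lay exactly at the annotated first base of 16.9% of member starts and of 2.51% of all 32851 starts in the table. Within the wider stretch it was present at 42.3% of member starts and 18.3% of all starts. Annotated starts can lie a few bases from the used start, and the pattern was read on the transcribed strand only.

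Library totals lay between 46154875 and 81995629 counts. All 16 macrophage markers examined were above 1 CPM in the mean, with Siglecf, a marker of alveolar macrophages, low in every library (4.29 to 9.87 CPM). Single markers differed with exposure at day 5 in both directions. Chil3 ranged over 2185.9 to 4147.9 CPM in exposed and 12280.5 to 20108.8 CPM in uninfected cells, and Mrc1 over 76.9 to 134 and 293 to 430 CPM. Csf1r ranged over 611 to 1021 CPM in exposed and 91.5 to 106 CPM in uninfected cells, and Itgax over 841 to 1081 and 159 to 229 CPM. Exposed day 5 replicate 3, exposed day 1 replicate 4 and uninfected day 5 replicate 4 were set apart after seeing the data, and results without these 3 are given below. Dixon's test, described below, flagged them in 2, 1 and 1 of the named members. It flagged exposed day 5 replicate 2 and uninfected day 1 replicates 2 and 4 in 1 member each, and these were kept. The summed T cell markers stayed at or below 0.233 CPM in every library, with Cd3g and Cd8a at 0. Summed neutrophil markers, of which 3 of 6 exceeded 1 CPM and Retnlg was at 0, ranged over 406 to 879 CPM in exposed and 446 to 613 CPM in uninfected cells of day 5, and over 761 to 1049 CPM in exposed and 300 to 391 CPM in uninfected cells of day 1. Summed epithelial markers, with 1 of 5 above 1 CPM, ranged over 14.0 to 24.4 CPM in exposed and 69.7 to 73.7 CPM in uninfected cells of day 5, and over 32.2 to 39.7 CPM in exposed and 59.7 to 64.9 CPM in uninfected cells of day 1. Summed endothelial markers, with 1 of 4 above 1 CPM, ranged over 6.17 to 9.23 CPM in exposed and 2.99 to 3.62 CPM in uninfected cells of day 5, and summed fibroblast markers, with Col1a2 and Lum at 0, over 9.74 to 13.2 CPM in exposed and 20.4 to 22.4 CPM in uninfected cells of day 5. The part of these markers in the results below was not tested.

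The members together took 3.62% ± 0.645 of all counts in exposed cells of day 5, 4.11% ± 0.378 in uninfected cells of day 5, 4.37% ± 0.162 in exposed cells of day 1 and 3.54% ± 0.174 in uninfected cells of day 1 (SD, n = 4 each). At day 1 the 4 exposed libraries held 4.42, 4.14, 4.40 and 4.52%, against 3.54, 3.68, 3.65 and 3.30% in the uninfected libraries, and the groups did not overlap. At day 5 they held 3.73, 3.24, 4.48 and 3.03% in exposed cells, against 3.91, 3.75, 4.15 and 4.62% in uninfected cells, and the groups overlapped through exposed replicate 3. No test was made on this sum, since its members were chosen as a set. The share of mitochondrially encoded genes was 0.969% ± 0.201 in exposed and 1.71% ± 0.126 in uninfected cells of day 5, and 2.28% ± 0.377 in exposed and 2.11% ± 0.112 in uninfected cells of day 1 (SD, n = 4 each).

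**Figure D1:**
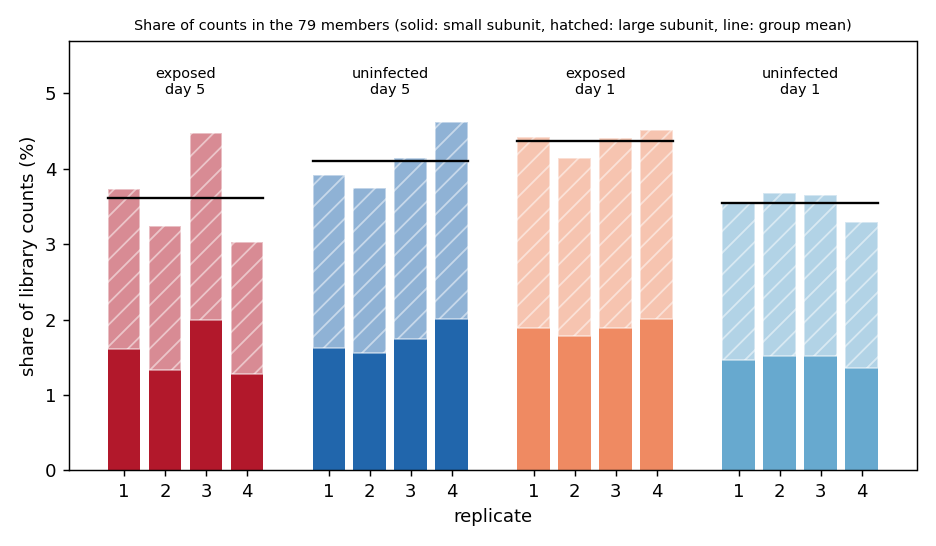
Share of each library's counts (%, y axis) in the 79 members, by group and replicate (x axis), split into small subunit (solid) and large subunit (hatched), with a line at the group mean. Exposed libraries of day 1 lie above all uninfected libraries of day 1, while at day 5 exposed replicate 3 (4.48%) lies among the uninfected libraries.

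At day 5, ribosomal protein genes were split in direction: 34 of 79 members were lower in exposed than in uninfected cells and 6 were higher. A gene was called at an adjusted p under 0.05 over all genes tested. Over all tested genes, 28.4% were called lower and 28.6% higher (57% in either direction). The share of members called lower (43.0%) exceeded that of all genes, and the share called higher (7.59%) fell under it. Among other genes above 100 CPM within the members' range of transcript GC content, 42.9% over the members' median were lower and 27.0% higher. At or under that median, 35.1% were lower and 30.0% higher. The median log2 fold change was −0.20 over members and 0.02 over all genes tested. Called lower members ranged from −0.74 to −0.23 on the log2 scale, and the 6 higher ones from 0.41 to 0.72. In the small subunit 11 of 31 were lower and 3 higher, and in the large subunit 23 of 48 were lower and 3 higher.

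The fit to the day 5 libraries alone called 28 lower and 3 higher. Shares over all genes were counted in the main fit only, not in this or the other alternative settings below or at unadjusted p. Such counts show only how the number of members called moved. Leaving out each library gave 28 to 40 lower calls. The 6 higher calls became 3 without exposed replicate 3 or uninfected replicate 2, and 10 without exposed replicate 4 or uninfected replicate 4. Exposed replicates 2 and 3 of day 5 carry library codes of another series in their names, and without them 49 members were lower and 3 higher.

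The acidic stalk of the large subunit, which recruits elongation factors to the ribosome, held the member with the lowest p at day 5. Rplp2, a stalk protein, had 310, 254, 264 and 263 CPM in exposed cells, against 446, 428, 484 and 451 CPM in uninfected cells. All exposed libraries lay below all uninfected ones, with a log2 fold change of −0.73 (SE 0.09, adjusted p = 5.81e-07). Rplp1, its partner, had 643, 560, 500 and 578 CPM in exposed cells, against 751, 751, 820 and 785 CPM in uninfected cells (log2 fold change −0.45, SE 0.09, adjusted p = 0.000205). Rplp0, which anchors the stalk to the large subunit, had 898, 1419, 1096 and 852 CPM in exposed cells, against 1130, 1013, 1268 and 1391 CPM in uninfected cells. Its groups overlapped and it was not called (log2 fold change −0.17, SE 0.14, adjusted p = 0.322).

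Among small subunit proteins, Rps29, Rps28, Rps26 and Rps2 fell at day 5. Rps29, a small zinc-binding protein of the small subunit's head, had 235, 176, 155 and 211 CPM in exposed cells, against 323, 314, 357 and 305 CPM in uninfected cells (log2 fold change −0.74, SE 0.12, adjusted p = 2.36e-05). Rps26, which lies where mRNA leaves the small subunit, had 211, 193, 157 and 204 CPM in exposed cells, against 314, 304, 344 and 278 CPM in uninfected cells (log2 fold change −0.70, SE 0.10, adjusted p = 7.11e-06). Rps28, also near the mRNA exit, had 161, 119, 112 and 136 CPM in exposed cells, against 209, 210, 215 and 185 CPM in uninfected cells (log2 fold change −0.63, SE 0.10, adjusted p = 2.61e-05). In each of these genes the groups did not overlap. Rps2, a protein of the mRNA entry side, had a log2 fold change of −0.61 (SE 0.11, adjusted p = 6.56e-05). Rpsa, known also as the laminin receptor precursor, fell by 0.38 on the log2 scale (SE 0.10, adjusted p = 0.00334), and Rps4x, encoded on the X chromosome, by 0.43 (SE 0.10, adjusted p = 0.00152).

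Among large subunit proteins, Rpl8, which lies near the peptidyl transferase centre, had 744, 800, 610 and 645 CPM in exposed cells, against 1125, 1020, 1188 and 1116 CPM in uninfected cells (log2 fold change −0.67, SE 0.10, adjusted p = 1.23e-05). Rpl37, a zinc-binding protein, had 319, 301, 258 and 283 CPM in exposed cells, against 414, 408, 422 and 387 CPM in uninfected cells (log2 fold change −0.49, SE 0.08, adjusted p = 4.78e-05). Neither gene's groups overlapped. Rpl36a, a neighbour of the tRNA exit site, fell by 0.46 (SE 0.08, adjusted p = 0.000107) and Rpl37a by 0.45 (SE 0.09, adjusted p = 0.000431).

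Rpl5 and Rpl11, which with the smallest ribosomal RNA form the particle that can bind the p53 regulator Mdm2, were called differently at day 5. Rpl11 had 317, 321, 293 and 272 CPM in exposed cells, against 392, 381, 408 and 389 CPM in uninfected cells, without overlap (log2 fold change −0.39, SE 0.08, adjusted p = 0.000584). Rpl5 had 816, 849, 1317 and 636 CPM in exposed cells, against 612, 594, 675 and 971 CPM in uninfected cells. Its groups overlapped, and the log2 fold change of 0.34 (SE 0.18, adjusted p = 0.108) was not called. Rpl5 was called higher in 4 of the 22 alternative settings run. The difference between these genes was not tested.

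The 6 members that rose at day 5 were Rps24, Rps15a, Rpl34, Rpl17, Rpl41 and Rps27a. Rps24, which is needed for processing of small subunit RNA, had 901, 772, 1407 and 927 CPM in exposed cells, against 526, 505, 594 and 812 CPM in uninfected cells (log2 fold change 0.72, SE 0.17, adjusted p = 0.00165). Rpl34 had 461, 382, 680 and 453 CPM in exposed cells, against 257, 253, 297 and 429 CPM in uninfected cells (log2 fold change 0.68, SE 0.18, adjusted p = 0.00384). In each, exposed replicate 3 was the highest and uninfected replicate 4 overlapped the exposed range.

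Rps15a, a small subunit protein, had 491, 498, 599 and 497 CPM in exposed cells, against 337, 318, 381 and 470 CPM in uninfected cells. It was the only member whose exposed libraries all lay above the uninfected ones at day 5 (log2 fold change 0.47, SE 0.12, adjusted p = 0.0021), against 22.3% of all genes tested with that order, while 29 members lay wholly below, against 24.2% of all genes. Rpl17, a protein that lines the peptide tunnel, had 1142, 1033, 1862 and 1006 CPM in exposed cells, against 699, 680, 774 and 1192 CPM in uninfected cells (log2 fold change 0.59, SE 0.19, adjusted p = 0.0143). Rpl41, the smallest protein of the large subunit, had a log2 fold change of 0.51 (SE 0.19, adjusted p = 0.0278). Rps27a, made as a fusion with ubiquitin, had a log2 fold change of 0.41 (SE 0.15, adjusted p = 0.0301). Without exposed replicate 3 these 3 calls were lost (adjusted p = 0.0718 for Rpl17, 0.135 for Rpl41 and 0.139 for Rps27a). The Rpl17 call was also lost without uninfected replicate 2, and those of Rpl41 and Rps27a without exposed replicate 1 or uninfected replicate 1, 2 or 3.

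**Figure D2:**
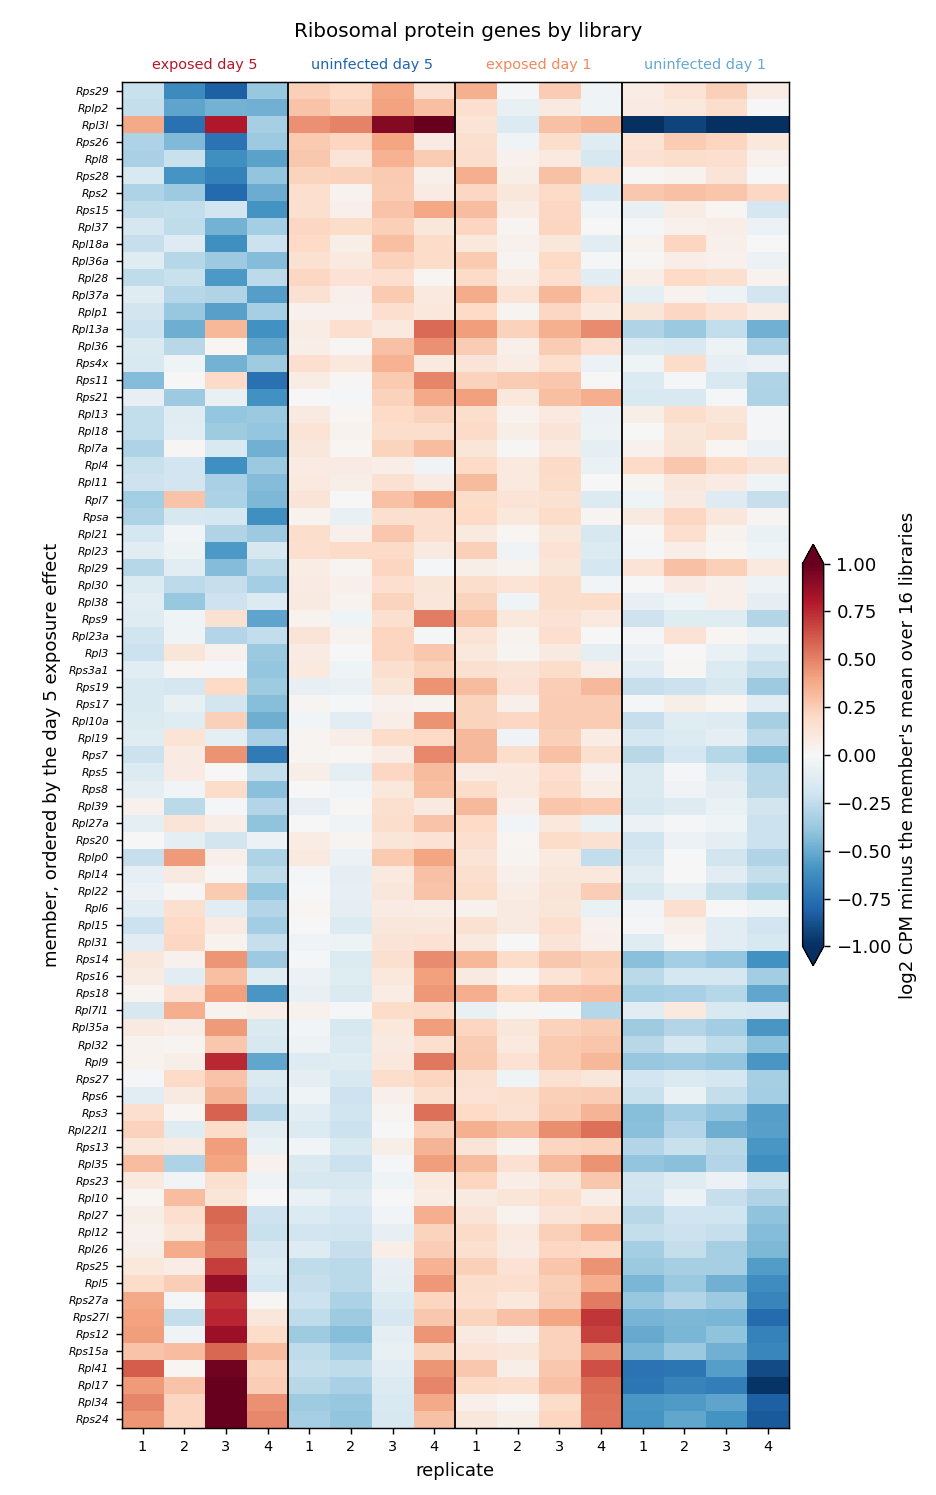
Heat map of the 79 members (rows, ordered by the day 5 exposure effect) in the 16 libraries (columns, by group and replicate), coloured by log2 CPM minus the member's mean over libraries. Uninfected day 1 libraries are low for members in the lower rows, and exposed day 5 replicate 3 is high in rows such as Rps24, Rpl34 and Rpl17.

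At day 1, 38 of 79 members were higher in exposed than in uninfected cells and 0 were lower. Over all tested genes, 13.4% were called higher and 10.5% lower (23.8% in either direction). At an unadjusted p under 0.05, 47 members were higher and 0 lower, and DESeq2 called 39 higher and 0 lower. The fit to the day 1 libraries alone called 50 higher and 1 lower, and shares over all genes were not counted in these settings. The median log2 fold change was 0.30 over members and 0.03 over all genes tested, and called members ranged from 0.27 to 1.17. In the small subunit 18 of 31 were higher, and in the large subunit 20 of 48.

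All 4 exposed libraries lay above all uninfected ones in 45 members, including all 38 called, against 19.6% of all genes tested, and lay wholly below in 0 members, against 19.7% of all genes. Leaving out a library gave 27 to 38 higher members, the fewest without uninfected replicate 4. With replicates 1 and 2 alone 19 were higher, and with replicates 3 and 4 alone 8.

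Rpl22l1, a paralog of the RNA-binding large subunit protein Rpl22, had the lowest p at day 1. It had 182, 176, 196 and 208 CPM in exposed cells, against 106, 116, 101 and 97.3 CPM in uninfected cells (log2 fold change 0.86, SE 0.11, adjusted p = 9.93e-06). All exposed libraries were above all uninfected ones. Rps15a had 443, 434, 472 and 552 CPM in exposed cells, against 292, 311, 288 and 256 CPM in uninfected cells (log2 fold change 0.73, SE 0.12, adjusted p = 0.000209). Rpl17 had 969, 959, 1039 and 1254 CPM in exposed cells, against 514, 534, 525 and 431 CPM in uninfected cells (log2 fold change 1.07, SE 0.20, adjusted p = 0.000723). Both were also among the members that rose at day 5.

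Rpl41 had 1114, 966, 1116 and 1446 CPM in exposed cells of day 1, against 555, 561, 633 and 499 CPM in uninfected cells (log2 fold change 1.05, SE 0.19, adjusted p = 0.000684). Rps27l, a paralog of Rps27 and a known p53 target, had 249, 261, 280 and 350 CPM in exposed cells, against 154, 156, 155 and 125 CPM in uninfected cells (log2 fold change 0.95, SE 0.18, adjusted p = 0.0011). Rpl35, near the peptide tunnel exit, had 602, 537, 604 and 658 CPM in exposed cells, against 368, 362, 393 and 316 CPM in uninfected cells (log2 fold change 0.74, SE 0.15, adjusted p = 0.00126). In these 3 genes exposed replicate 4 was the highest and uninfected replicate 4 the lowest.

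Some other members with known roles outside the ribosome or in disease also rose at day 1. Rpl5 had a log2 fold change of 0.72 (SE 0.18, adjusted p = 0.0071), while that of Rpl11 was 0.11 (SE 0.08, adjusted p = 0.369) and not called. Rps6, the substrate of the S6 kinases, had 0.41 (SE 0.11, adjusted p = 0.01), and Rps19, the gene most often mutated in human Diamond-Blackfan anaemia, 0.50 (SE 0.12, adjusted p = 0.00622). Rpl26, which in human cells binds p53 mRNA, had 0.50 (SE 0.13, adjusted p = 0.00811). Rpl10, which completes the large subunit, had 0.30 (SE 0.09, adjusted p = 0.0185), and its call was lost without exposed replicate 3 or uninfected replicates 1, 3 or 4. The stalk genes were not called, with log2 fold changes of −0.05 for Rplp2, −0.00 for Rplp1 and 0.17 for Rplp0. Neither were Rpsa (0.02), Rps4x (0.07) and Rpl36a (0.11).

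**Figure D3:**
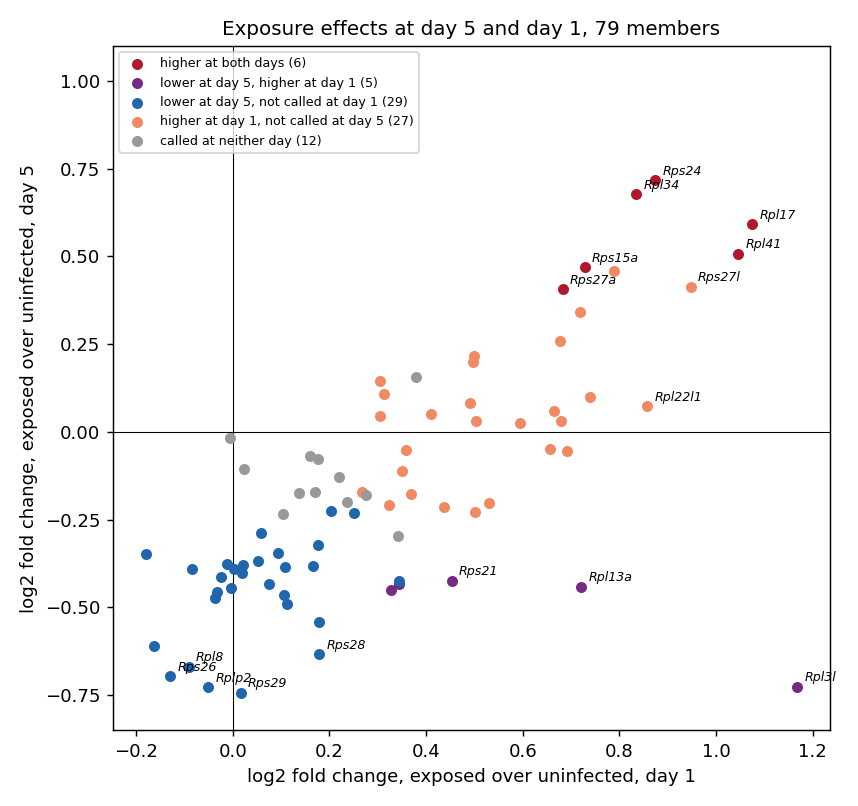
Log2 fold change of exposed over uninfected cells at day 5 (y axis) and day 1 (x axis) for the 79 members, each point a gene coloured by its calls. 6 members were higher at both days, and 5, with Rpl3l as a description only, were lower at day 5 and higher at day 1. All 79 points lie below the level that equal effects would give.

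Setting the days side by side, 6 members were higher at both, and 5 (Rpl13a, Rpl36, Rpl37a, Rpl3l and Rps21) were lower at day 5 and higher at day 1. Rpl3l stands in this paragraph's counts as a description only, since it passed the level threshold only through uninfected cells of day 5. A further 29 were lower at day 5 and not called at day 1, 27 were not called at day 5 and higher at day 1, and 12 were called at neither. Point estimates were below 0 at day 5 and above 0 at day 1 in 43 members. The same combined counts were not made over all genes tested, of which 57% were called at day 5 and 23.8% at day 1. The combined counts are therefore a description and no result about the members. Across the 79 members the effects of the days correlated (Pearson's r 0.70, Spearman's rho 0.69), as a description over genes that share the same libraries within each day. The days used separate exposed and separate uninfected libraries.

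The test of the change itself, the day 5 effect minus the day 1 effect, called 49 of 79 members lower and 0 higher. Over all tested genes 19.5% were called lower and 16.4% higher (35.9% in either direction). The point estimate was below 0 in all 79 members, with a median of −0.44, against −0.04 over all genes tested. At an unadjusted p under 0.05, 57 were lower and 0 higher, and DESeq2 called 49 lower and 0 higher. The split was 20 of 31 in the small subunit and 29 of 48 in the large subunit. Leaving out a library gave 39 to 60 lower members, while replicates 1 and 2 alone gave 12 and replicates 3 and 4 alone 11.

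Rpl37a, a zinc-binding large subunit protein, had 327, 293, 289 and 243 CPM in exposed and 396, 370, 427 and 382 CPM in uninfected cells of day 5, and 462, 392, 449 and 401 CPM in exposed and 334, 366, 345 and 313 CPM in uninfected cells of day 1. Its change between days was −0.78 on the log2 scale (SE 0.13, adjusted p = 0.000184), and the groups separated at both days in opposite order. The day 1 call of Rpl37a was lost without exposed replicate 1 or 3 or uninfected replicate 4. Rps21, a small subunit protein, separated in the same way, with 210, 172, 211 and 146 CPM in exposed and 222, 220, 260 and 289 CPM in uninfected cells of day 5. At day 1 it had 294, 239, 273 and 285 CPM in exposed cells, against 200, 200, 219 and 179 CPM in uninfected cells (change −0.88, SE 0.17, adjusted p = 0.000508). For Rps28 the change was −0.81 (SE 0.14, adjusted p = 0.000238), for Rplp2 −0.68 (SE 0.12, adjusted p = 0.000253) and for Rpl22l1 −0.78 (SE 0.15, adjusted p = 0.000495). Members such as Rps24 (−0.16, SE 0.24, adjusted p = 0.655) and Rpl34 (−0.16, SE 0.25, adjusted p = 0.668), higher at both days, were not called for a change.

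**Figure D4:**
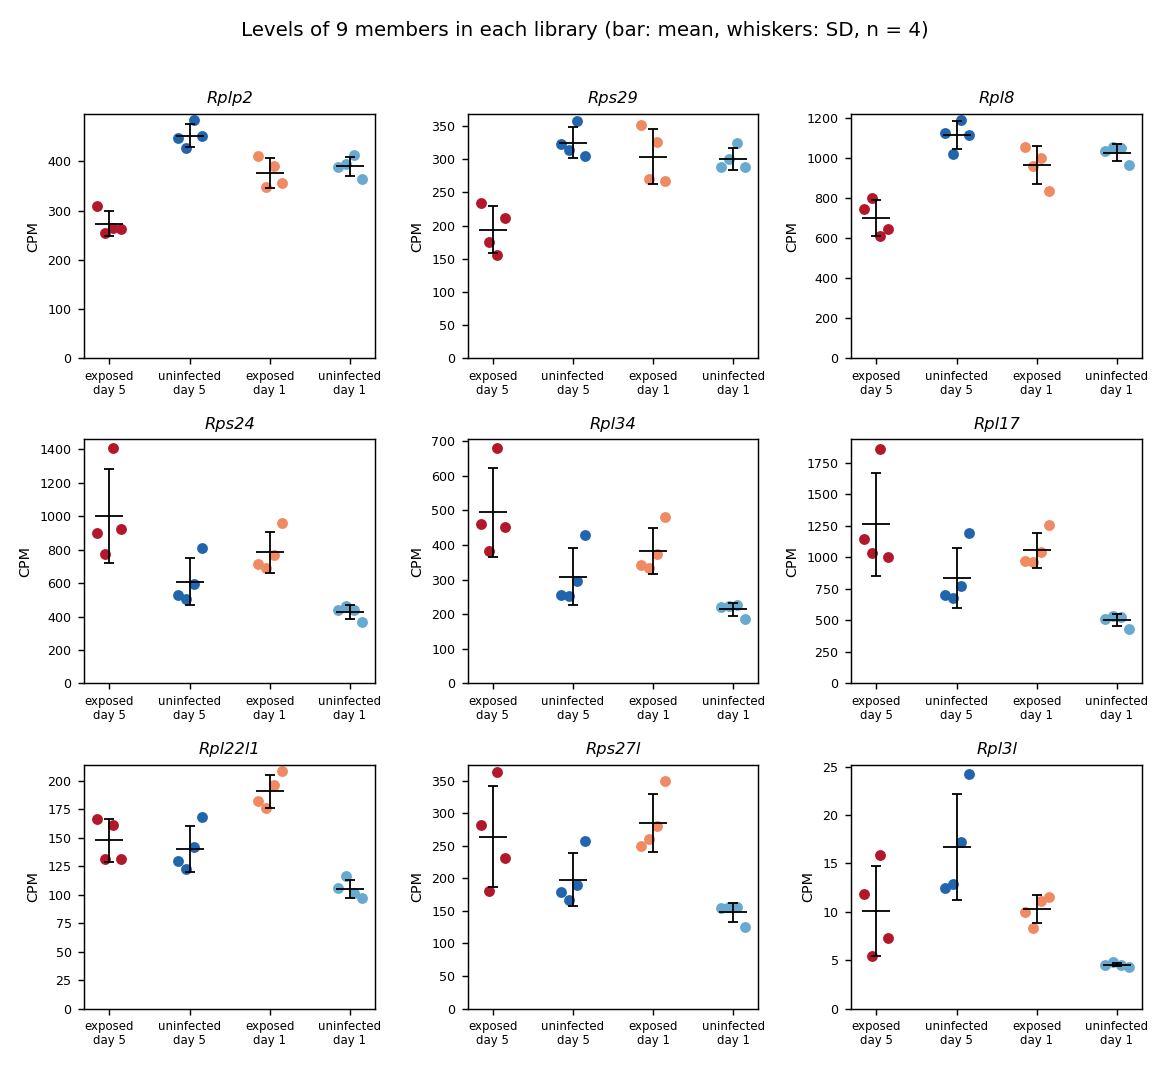
CPM (y axis, from 0) of 9 members in every library (points) of the 4 groups (x axis), with mean and SD (n = 4). Rplp2, Rps29 and Rpl8 are lowest in exposed cells of day 5, while Rps24, Rpl34 and Rpl17 are lowest in uninfected cells of day 1.

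In uninfected cells, 20 of 79 members were higher at day 5 than at day 1 and 0 were lower, against 10.8% of all tested genes called higher and 8.91% lower (19.7% in either direction). The median log2 fold change was 0.23 over members and 0.02 over all genes tested. At an unadjusted p under 0.05, 42 were higher and 0 lower. DESeq2 called 25 higher and 0 lower, and the fit to the uninfected libraries alone called 53 higher and 0 lower. The shares over all genes in these settings were not counted, so the counts of 42, 25 and 53 are no result about the members. In 38 members all day 5 libraries lay above all day 1 libraries, against 17.6% of all genes, and in Rpl4 alone they lay below, against 17.9%. The count was fragile: it became 3 without uninfected day 5 replicate 4, 8 without day 5 replicate 3, and 8, 11, 10 and 7 without day 1 replicates 1, 2, 3 and 4, while scaling by raw library totals gave 9.

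Rps14, a small subunit protein of the platform, had 740, 680, 838 and 1040 CPM at day 5, against 559, 592, 573 and 492 CPM at day 1 in uninfected cells (log2 fold change 0.57, SE 0.14, adjusted p = 0.00825). Rpl35a had a log2 fold change of 0.49 (SE 0.12, adjusted p = 0.00826), Rpl17 0.74 (SE 0.19, adjusted p = 0.0122) and Rpl41 0.71 (SE 0.19, adjusted p = 0.0128). The calls of Rpl17 and Rpl41 were lost without day 5 replicate 4 (adjusted p = 0.0567 and 0.0605). Rpl3l, the striated-muscle paralog of the peptidyl transferase centre protein Rpl3, had 12.5, 12.9, 17.2 and 24.2 CPM in uninfected cells of day 5, against 4.54, 4.80, 4.54 and 4.34 CPM in uninfected cells of day 1. Its mean of 10.4 CPM passed the threshold of 10 CPM only through uninfected cells of day 5, since the mean of the other 3 groups was 8.30 CPM. It was the only such member, so its values in comparisons with that group are a description and support no count. Without it, 19 of 78 members were higher in uninfected cells, 33 were lower and 6 higher at day 5, and 48 were lower for the change between days.

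In exposed cells the order of the days was reversed: 38 of 79 members were lower at day 5 than at day 1 and 0 were higher, against 25.2% of all tested genes called lower and 25.6% higher (50.8% in either direction). The median log2 fold change was −0.24 over members and 0.00 over all genes tested. At an unadjusted p under 0.05, 39 were lower and 0 higher, and DESeq2 called 35 lower and 0 higher. The fit to the exposed libraries alone called 26 lower and 0 higher. Day 5 libraries lay wholly below day 1 libraries in 28 members, against 21.5% of all genes, and wholly above in 0, against 19.5%. Leaving out a library gave 30 to 45 lower members and at most 2 higher, the 2 without exposed day 1 replicate 4 or without exposed day 5 replicate 2, and 1 without exposed day 5 replicate 1. These comparisons share libraries with those above.

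Rps28 had the lowest p in exposed cells, with 161, 119, 112 and 136 CPM at day 5, against 230, 187, 219 and 200 CPM at day 1 (log2 fold change −0.66, SE 0.10, adjusted p = 2.17e-05). Rps29 fell by 0.65 (SE 0.12, adjusted p = 0.000143), Rpl37a by 0.56 (SE 0.09, adjusted p = 5.74e-05), Rps2 by 0.57 (SE 0.11, adjusted p = 0.000174), Rplp1 by 0.49 (SE 0.09, adjusted p = 0.000107) and Rplp2 by 0.46 (SE 0.08, adjusted p = 0.000151). The members that were higher in exposed cells at both days did not pass the test between the days, with log2 fold changes between 0.04 for Rps27a and 0.37 for Rpl34.

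Paralog pairs are given with both partners, and the difference between partners was not tested. Rpl22 at day 1 had 171, 159, 165 and 178 CPM in exposed cells, against 135, 143, 129 and 121 CPM in uninfected cells (log2 fold change 0.35, SE 0.11, adjusted p = 0.0266), beside 0.86 for Rpl22l1. The Rpl22 call was lost without exposed replicate 1, 3 or 4 or uninfected replicate 1, 3 or 4. Rpl22l1 took 46.3 to 53.5% of the pair's CPM in exposed and 46.6% ± 0.721 in uninfected cells of day 5, and 53.1% ± 1.27 in exposed and 44.3% ± 0.357 in uninfected cells of day 1 (SD, n = 4). The shares of the 4 exposed libraries of day 1 lay between 51.5 and 54.3%, and those of the uninfected libraries between 44.0 and 44.7%.

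Rps27l took 59.4% ± 7.02 of the CPM of the Rps27 pair in exposed and 53.7% ± 2.84 in uninfected cells of day 5, and 61.7% ± 3.56 in exposed and 50.9% ± 1.32 in uninfected cells of day 1. Rps27 itself had a log2 fold change of 0.05 at day 5 (SE 0.10, adjusted p = 0.719) and 0.30 at day 1 (SE 0.10, adjusted p = 0.0358). Its day 1 call was lost when any of 7 of the 8 libraries was left out, exposed replicate 2 being the exception. These shares use CPM without correction for length and compare groups only.

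Rpl3l at day 1 had 10.0, 8.29, 11.2 and 11.6 CPM in exposed cells, against the 4.34 to 4.80 CPM of uninfected cells (log2 fold change 1.17, SE 0.27, adjusted p = 0.00581). At day 5 it had 11.8, 5.45, 15.8 and 7.25 CPM in exposed cells, against 12.5 to 24.2 CPM in uninfected cells, and the groups overlapped. Rpl3 was called at neither day (log2 fold change −0.24 at day 5, adjusted p = 0.0631, and 0.10 at day 1, adjusted p = 0.513). Rpl7l1, a paralog of Rpl7, had −0.02 at day 5 and −0.01 at day 1 and was not called. Rpl7 had −0.38 at day 5 (SE 0.14, adjusted p = 0.0251), with the call lost without exposed replicate 1, 3 or 4 or uninfected replicate 3 or 4, and 0.17 at day 1 (adjusted p = 0.419).

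Rpl39, at the peptide exit, had a log2 fold change of −0.18 at day 5 (SE 0.09, adjusted p = 0.0941) and 0.37 at day 1 (SE 0.09, adjusted p = 0.00518). The paralogs Rpl39l, Rpl10l and Rps4l had 2, 0 and 10 counts over all libraries and were not tested.

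Levels per length ranged widely. In CPM per kilobase of annotated transcript, Rpl41 was the highest of the members (1876), followed by Rps12 (1672) and Rplp1 (1477), and Rpl3l was the lowest (10.1), below Rpl13a (37.5) and Rpl7l1 (59.9). In CPM without length correction, Rplp0 (1069), Rpl41 (988) and Rpl8 (949.9) led. Across the 4 group means, Rpl3l spanned 1.81 on the log2 CPM scale, Rpl17 1.29 and Rps24 1.20, while Rpl15 spanned 0.18, Rpl31 0.16 and Rpl6 0.14, and these last 3 were called in no comparison.

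Just inside the threshold of 10 CPM stood Rpl3l at 10.4 CPM and Rpl13a at 18.7 CPM, then Rpl7l1 at 78.3 CPM. Just outside stood Rps10 (2.60 CPM), Rps3a2 (1.58 CPM) and Rpl6l (1.21 CPM), and Rpl24 had 0.719 CPM. Rps10, Rpl24 and Rpl13a encode general ribosomal proteins, and in GENCODE M21 each overlaps another gene model on the same strand, where the authors' counting could leave reads unassigned. Rpl13 (596 CPM) and Rpl19 (261 CPM) overlap a gene model on the same strand too, so such an overlap did not go with a low count in every case, and its part was not tested. Rpl13a, whose human protein is known to silence inflammatory mRNAs once released from the ribosome, had 15.5, 12.8, 22.6 and 11.8 CPM in exposed and 18.9, 20.2, 19.2 and 26.7 CPM in uninfected cells of day 5, and 24.1, 21.1, 23.0 and 24.9 CPM in exposed and 14.6, 13.9, 15.1 and 12.9 CPM in uninfected cells of day 1. Its day 5 call (log2 fold change −0.44, SE 0.16, adjusted p = 0.0224) was lost without exposed replicate 2 or 4 or uninfected replicate 4. Its change between days was −1.16 (SE 0.22, adjusted p = 0.000538).

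Ribosomal protein genes have many near-identical processed copies in the genome. Of all stretches of 75 bases in a member's longest annotated protein-coding transcript, a median of 64.5% (range 15.1 to 100%) occurred in no other gene model. Rpl10 (15.1%), Rpl36a (15.4%), Rps6 (15.9%) and Rpl3 (16.8%) had the lowest shares of such unique stretches. How reads from stretches shared with other models were assigned is not given in the sources used here. With the counts of pseudogenes named after a member added to it, all 38 members higher at day 1, all 34 lower at day 5 and all 49 lower for the change kept their call. These pseudogenes held only 0.0122 to 0.0227% of a library's counts, so adding them could change little. Copies under other names were not added, so this setting does not show the part of shared reads. Across members the share of unique stretches and the day 5 effect had r 0.02, and with the day 1 effect r 0.15, as a description over 79 genes.

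The spread between replicates was widest in exposed cells of day 5. The median SD of log2 CPM between replicates was 0.22 over members in exposed cells of day 5 (0.30 over all genes tested), 0.15 in uninfected cells of day 5 (0.15), 0.11 in exposed cells of day 1 (0.14) and 0.10 in uninfected cells of day 1 (0.11). The first principal component of the 79 members held 59.9% of their variance and the second 27.9%. Exposed replicates 1 to 4 of day 5 had 7, 8, 22 and 3 members above all uninfected libraries of that day, and 49, 39, 32 and 59 below. Of all genes tested, 37.7 to 41.3% lay above and 37.5 to 40.8% below in these libraries. At day 1 the exposed replicates 1 to 4 had 62, 51, 62 and 49 members above all uninfected libraries, and 1, 8, 1 and 17 below, against 33.5 to 40.7% of all genes above and 32.3 to 34.7% below.

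Members differed in direction along the GC content of their transcripts, which ranged from 39.8 to 60.8% with a median of 51.8%. At day 5, 22 of 39 members over the median GC were lower and 2 higher, while 12 of 40 at or under it were lower and 4 higher. At day 1, 14 of the 39 and 24 of the 40 were higher, and 0 of either were lower. Other genes above 100 CPM within the members' range of GC numbered 877 over the member median and 1178 at or under it. Of these, 42.9% over the median and 35.1% at or under it were lower at day 5, and 27.0% and 30.0% were higher. At day 1, 12.7% over the median and 15.1% at or under it were higher. The correlation of the log2 fold change with GC over the 79 members was −0.38 at day 5 and −0.25 at day 1. Over all 2132 other genes above 100 CPM with a GC value, inside that range or not, it was −0.03 and −0.04.

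Library GC slopes over all genes moved with exposure too: log2 CPM changed by −0.12 to −0.03 per 10 points of GC in the exposed and by 0.01 to 0.09 in the uninfected libraries of day 5, and by −0.11 to 0.01 in the exposed and 0.01 to 0.13 in the uninfected libraries of day 1. After removing a GC trend from each library, an alternative chosen after seeing the data, 36 members were lower and 7 higher at day 5, 37 higher and 0 lower at day 1, and 37 lower and 0 higher for the change between days.

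**Figure D5:**
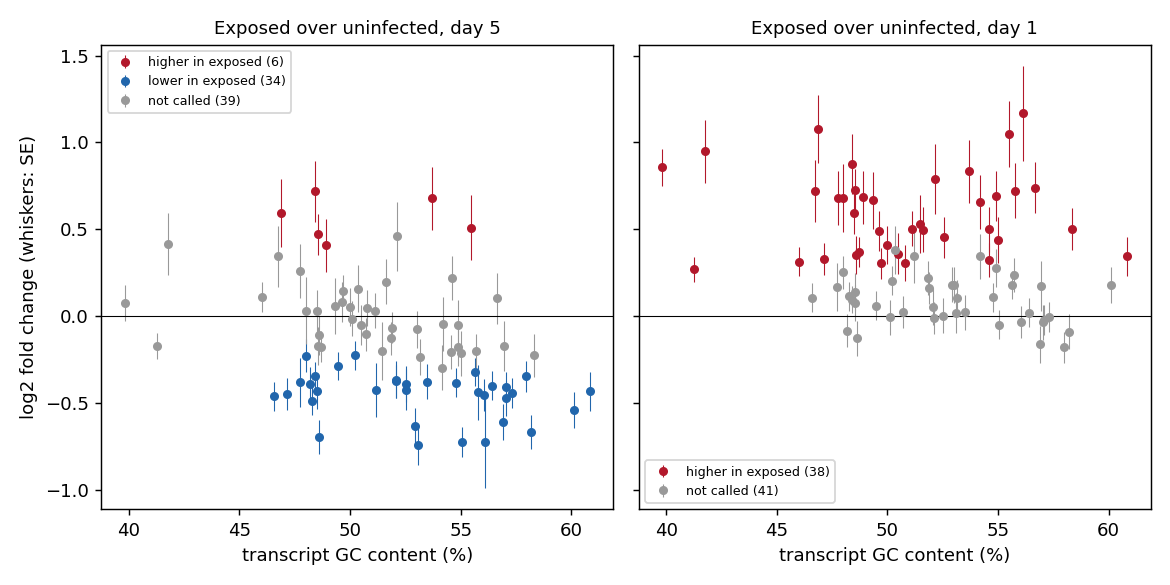
Log2 fold change of exposed over uninfected cells (y axis, whiskers SE) against transcript GC content (x axis, %) for the 79 members at day 5 (left) and day 1 (right), coloured by call. Lower calls at day 5 are denser over the median GC of 51.8% (22 of 39) than at or under it (12 of 40).

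Another alternative chosen after seeing the data left out the 3 libraries set apart (exposed day 5 replicate 3, exposed day 1 replicate 4 and uninfected day 5 replicate 4). Without them, 34 members were lower and 10 higher at day 5, and 44 were higher and 0 lower at day 1. For the change, 58 were lower and 0 higher. Between days, 19 were higher and 0 lower in uninfected cells, and 47 were lower and 2 higher in exposed cells.

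Lists of other translation genes were counted in the same fit, and their shares stand beside those of all genes tested: 28.4% lower and 28.6% higher at day 5, 10.5% and 13.4% at day 1, and 19.5% and 16.4% for the change between days. Of 20 further TOP mRNAs and ribosome-associated genes, 8 (40%) were lower and 0 higher in exposed cells at day 5, and 1 (5%) was lower and 4 (20%) higher at day 1. For the change between days 11 (55%) were lower and 0 higher, with a median of −0.44. Fau, whose product holds the small subunit protein Rps30 fused to a ubiquitin-like part, had 875, 749, 819 and 808 CPM in exposed cells of day 1, against 546, 580, 611 and 524 CPM in uninfected cells (log2 fold change 0.52, SE 0.13, adjusted p = 0.00544). Eef1b2, an exchange factor of elongation, had 0.52 at day 1 (SE 0.11, adjusted p = 0.00314). Nap1l1, a histone chaperone with a TOP mRNA, had −0.92 at day 5 (SE 0.08, adjusted p = 1.1e-08) and Eef1d −0.71 (SE 0.08, adjusted p = 4.08e-07).

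Of 54 ribosome assembly factors, 29 (53.7%) were lower, 2 (3.70%) higher and 23 not called at day 5. At day 1, 22 (40.7%) were lower, 0 higher and 32 not called. Their median log2 fold changes were −0.25 and −0.23. Rrp12, which in yeast serves export of both subunits, had 25.9, 23.3, 20.0 and 24.2 CPM in exposed cells of day 5, against 44.4, 43.4, 41.9 and 42.9 CPM in uninfected cells (log2 fold change −0.89, SE 0.09, adjusted p = 5.06e-08). Nop56 and Nop58, core proteins of the particles that methylate ribosomal RNA, had −0.62 (SE 0.06, adjusted p = 6.19e-08) and −0.86 (SE 0.10, adjusted p = 3.69e-07). In the same list Mdn1, an ATPase of large subunit assembly, was 1 of the 5 genes called higher for the change between days (0.88, SE 0.15, adjusted p = 0.00013), beside 10 called lower.

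The RNA polymerase I list had 6 of 16 (37.5%) lower and 3 (18.8%) higher at day 5, and 3 (18.8%) lower and 2 (12.5%) higher at day 1. These shares differ from those of all genes by a few genes and are no result about the list. Polr1a, its largest subunit, had −0.63 at day 1 (SE 0.09, adjusted p = 4e-05) and was not called at day 5. Initiation factors had 11 of 35 (31.4%) lower and 3 (8.57%) higher at day 5, and 5 (14.3%) lower and 1 (2.86%) higher at day 1. Their lower shares were near those of all genes, and their higher shares were smaller. Elongation and termination factors had 3 of 9 lower and 1 higher at day 5, and 2 lower and 1 higher at day 1, counts too small to set apart from the all-gene shares.

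Among 20 genes that control ribosomal protein mRNAs, 6 (30%) were lower and 6 (30%) higher at day 5, near the shares of all genes and no result about the list. At day 1, 5 (25%) were lower and 1 (5%) higher. Myc, which drives ribosome production, had 42.0, 56.2, 44.0 and 50.6 CPM in exposed cells of day 5, against 140, 143, 141 and 137 CPM in uninfected cells (log2 fold change −1.54, SE 0.09, adjusted p = 4.46e-11). At day 1 its log2 fold change was −0.34 (SE 0.09, adjusted p = 0.00813). Ddit4, an inhibitor of mTOR signalling, had 24.2, 38.2, 22.2 and 28.7 CPM in exposed cells of day 5, against 7.10, 7.90, 7.26 and 7.60 CPM in uninfected cells (log2 fold change 1.92, SE 0.18, adjusted p = 3.59e-08). Eif4ebp2, a repressor of cap-dependent translation, had −0.92 (SE 0.08, adjusted p = 1.47e-08).

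Of 13 ribosome surveillance genes, 3 (23.1%) were lower and 6 (46.2%) higher at day 5, and 2 (15.4%) were lower and 2 (15.4%) higher at day 1, near the shares of all genes except for the higher share at day 5, in a list of few genes. Mdm2, the ubiquitin ligase of p53, had 153, 219, 152 and 198 CPM in exposed cells of day 5, against 112, 111, 106 and 113 CPM in uninfected cells (log2 fold change 0.71, SE 0.10, adjusted p = 5.75e-06). Its relative Mdm4 had 1.01 (SE 0.13, adjusted p = 2.77e-06). Map3k20, the kinase that senses stalled ribosomes, had −0.66 (SE 0.08, adjusted p = 8.47e-07).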

How the data were processed

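RNA-seq of polyadenylated RNA from 16 libraries was used. Each deposited file gives a library's raw counts, reverse-strand per the file names; reads were aligned to GRCm39 with STAR, per the submitters' processing notes, with versions not given in the sources used here. Symbols (52083 of 55359 genes; the others held 0.449% of counts), transcript GC content and 75-base stretches came from GENCODE M21, on an older assembly.

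Genes passing edgeR's filterByExpr (17190) were fitted with edgeR 4.0.16 (R 4.3.3; TMM, robust quasi-likelihood) with a mean per group over all libraries. Two-sided p-values were adjusted over all genes tested (Benjamini-Hochberg). The steps were tested on simulated data, with changes put into genes of at least 10 CPM. A log2 change of 0.25 was called in 4.48% of altered genes at day 1, 2.99% at day 5 and 0% for the change. A log2 change of 0.5 was called in 64.2%, 68.7% and 22.4%. A member that was not called can therefore still have changed by such amounts. SE is the log2 fold change over the square root of F; CPM use TMM-scaled totals. Alternatives included DESeq2 1.42.0, other scalings and filters, and left-out libraries.

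Members and lists were chosen with earlier results of these data known. Members named were, per comparison and direction, the 6 called ones with the smallest p, fixed ribosomal roles and paralogs, and extremes of level and range; from each other list up to 4 called genes, of which some are printed.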

Additional observations from a re-analysis of the deposited data

Results flagged for a closer look

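Among 180 groups of 4 libraries examined, 7 held a library far from the other 3, judged by its gap to the nearest library over the group's whole range (Dixon's test). Chance flags about 1 in 20 groups, and 3.89% were flagged here. Rpl17 had 1862 CPM in exposed day 5 replicate 3, with the others at 1006 to 1142 CPM (gap over range 0.841), and Rps15a had 599 CPM there, with the others at 491 to 498 CPM (0.932). Rpl7 had 817 CPM in exposed day 5 replicate 2, with the others at 490 to 538 CPM (0.855), and 611 CPM in exposed day 1 replicate 4, with the others at 739 to 763 CPM (0.838). Rpl13a had 26.7 CPM in uninfected day 5 replicate 4, with the others at 18.9 to 20.2 CPM (0.836). Rps27l had 125 CPM in uninfected day 1 replicate 4, with the others at 154 to 156 CPM (0.95). Rps4x had 939 CPM in uninfected day 1 replicate 2, with the others at 783 to 805 CPM (0.861).

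The exposure effect differed between the days, by the test of the day 5 effect minus the day 1 effect, in 24 of the 42 named members, all in the same direction. Some members were named for a small p in this same test, so the count of 24 is no support. Over all 79 members 49 were called lower, against 19.5% of all genes tested called lower and 16.4% higher. Beside Rpl37a, Rps21, Rps28, Rplp2, Rpl22l1 and Rpl13a, whose values are −0.78, −0.88, −0.81, −0.68, −0.78 and −1.16 on the log2 scale, Rpl3l had −1.89, as a description, since it passed the level threshold only through uninfected cells of day 5. In the small subunit the values were −0.76 for Rps29, −0.74 for Rps14, −0.73 for Rps19, −0.57 for Rps26, −0.51 for Rps4x, −0.45 for Rps2 and −0.40 for Rpsa. In the large subunit they were −0.64 for Rpl35, −0.60 for Rpl37, −0.58 for Rpl8, −0.57 for Rpl36a, −0.57 for Rpl35a, −0.55 for Rpl7, −0.54 for Rpl39, −0.49 for Rpl11, −0.46 for Rpl22 and −0.44 for Rplp1. The calls of Rps2, Rpsa, Rpl7, Rpl22 and Rpl35 were lost when some of the libraries were left out.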

How the results depend on the processing

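Of the 210 results of 42 named members, 100 were called in the main fit, and none of these changed sign under the alternatives run. None of the 110 uncalled results became called with the opposite sign. Sign changes of results that stayed uncalled were not tracked, and counts and summed shares were compared by size only. Other members were not run singly, and shares over all genes were not counted under the alternatives. Replicates 1 and 2 alone gave 19 higher members at day 1, 12 higher and 16 lower at day 5, 12 lower for the change, 0 higher between days in uninfected cells, and 24 lower and 1 higher in exposed cells. Replicates 3 and 4 alone gave 8 higher at day 1, 1 higher at day 5, 11 lower for the change, 1 higher in uninfected and 16 lower in exposed cells. Fits to a comparison's own libraries gave 3 higher and 28 lower at day 5, and 50 higher and 1 lower at day 1. They gave 53 higher in uninfected cells and 26 lower in exposed cells. In the other translation lists they gave 26 higher and 72 lower at day 1 and 17 higher and 71 lower in uninfected cells. DESeq2 gave 60 lower at day 1 in those lists. Raw totals gave 3 higher at day 5 and 9 in uninfected cells, where RLE gave 13 and keeping every gene with 1 read 12. Raw totals moved the median of all genes to −0.12 for the change between days. Without the library codes of another series 3 were higher at day 5, and without the 3 libraries set apart 10 were, and 2 in exposed cells. The cause was not tested.

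Leaving out each library gave at day 1 27 to 38 higher, at day 5 3 to 10 higher and 28 to 40 lower, for the change 39 to 60 lower, in uninfected cells 3 to 23 higher, and in exposed cells 0 to 2 higher and 30 to 45 lower. In the 156 other translation genes it gave 8 to 9 higher and 29 to 35 lower at day 1, 19 to 28 and 55 to 72 at day 5, 11 to 29 and 24 to 35 for the change, 3 to 7 and 26 to 39 in uninfected cells, and 11 to 19 and 57 to 75 in exposed cells. Of 100 called results of named genes, 33 kept the call in all settings. Of 110 results not called, 54 were called in no setting. Equal replicate numbers did not pair the samples (correlations of deviations −0.15 to 0.15, and 3 of 16 libraries matched their own number best); with a replicate block, 38 were higher at day 1, 7 higher and 33 lower at day 5, 48 lower for the change, 14 higher in uninfected and 35 lower in exposed cells.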
